A study of Homo sapiens with 6 samples.

Results

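The genes described here are CCNL2, the target of the knockdown, its paralogue CCNL1, their kinase partners CDK11A and CDK11B, and the kinases and cyclins that drive RNA polymerase II elongation: CDK9 with CCNT1 and CCNT2, and CDK12 and CDK13 with CCNK. They were taken by name, as 10 of the 60835 distinct gene names in the deposited tables. The rule has no threshold on a measured value, although earlier results of these data were known when it was made. RNA was sequenced from HEY, an ovarian cancer cell line grown in culture, in 6 libraries. Of these, 3 carried the genotype label siNC, for a control siRNA, and 3 carried siCCNL2, for an siRNA against CCNL2. No other agent or genetic change is named for either group. The treatment text gives 48 h with an siRNA against CCNL2 for every library, the siNC libraries included, which differs from the genotype labels of the controls. Groups here rest on the genotype labels and titles alone, on which every difference between siCCNL2 and siNC depends, and the time of the controls is taken to be the same. The number and sequences of the siRNAs are not given in the sources used here. An siRNA effect on the target therefore cannot be told apart from an effect of that siRNA on other transcripts. Separate cultures are not mentioned for libraries of a group, so the tests speak only of the spread among these 6 libraries.

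Cyclins L1 and L2 bind CDK11 and sit with splicing factors in nuclear speckles, where CDK11 phosphorylates splicing proteins such as SF3B1. CDK9 with cyclin T1 or T2 forms P-TEFb, which releases paused RNA polymerase II, and which is held inactive by HEXIM1 and the 7SK RNA. Cyclin K serves CDK12 and CDK13, which phosphorylate the polymerase tail over gene bodies. CDK12 is known in ovarian cancer for its link to the expression of DNA repair genes.

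The members include paralogous pairs, and how far these pairs share sequence sets how well their reads can separate them. The coding sequences of CCNL2 and CCNL1 (GENCODE release 29, GRCh38) shared 5 of the 1542 words of 19 bases in CCNL2 and none of 50 bases. All 5 lay in the 2 stretches shown first below, written in lower case with no base marked. The first covers coding bases 239 to 260 of CCNL2 in exon 1 of 11 (chr1:1399047-1399068, minus strand) and the second coding bases 774 to 792 in exon 7 (chr1:1390531-1390549). Their copies in CCNL1 lie in exon 1 (chr3:157159820-157159841, minus strand) and exon 7 (chr3:157150137-157150155). The longest stretches shared by CDK12 and CDK13, across exons 5 and 6 of both, and by CCNT1 and CCNT2, in exon 7 of both, follow for comparison.
CCNL2 and CCNL1, exon 1: tgggctgcgagctcatccaggc
CCNL2 and CCNL1, exon 7: tcgtccccattggtttctt
CDK12 and CDK13: tggatttcaagaaggacaaaggtgc
CCNT1 and CCNT2: tggtccaattgggagatccc

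These stretches are 22, 19, 25 and 20 bases long, so these 3 pairs are well separated by sequencing reads. An siRNA of 19 bases could match CCNL2 and CCNL1 together over its full length in the coding sequence only inside the 2 stretches shown. Only perfect matches of 19 bases were considered for an siRNA, not shorter or imperfect ones. Whether the siRNA used matched CCNL1 in any of these ways was not tested. Over all CCNL2 transcripts, 7080 words of 19 bases, 5 were also found in CCNL1 transcripts, 9 in CDK13, 1 in CDK11B and 0 in each of the other members. The CDK11 pair is different. CDK11A and CDK11B have coding sequences of 2349 and 2385 bases, 99.02% of CDK11A falls in matching blocks, and the longest identical run is 646 bases. Of the 50-base words of CDK11A, 62.3% also occur in CDK11B, so the counts of these 2 genes depend on how the authors' counting treated reads that fit both.

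The libraries held 13596286 to 18095529 counted reads, and 15346 genes passed the filter on low counts, among them every member except CDK11A. In log2 counts per 1000000 counted reads (CPM), libraries of 1 group correlated at r = 0.994 to 0.995 and libraries of different groups at 0.987 to 0.989. In the labelled ovarian carcinoma cells, 7 of 11 ovarian and epithelial markers averaged at least 1 CPM. PAX8, the Müllerian lineage factor, ran from 128 to 135 CPM in siNC and from 112 to 120 in siCCNL2, while MUC16, WFDC2, CDH1 and FOLR1 were at or near 0. All 4 mesenchymal markers were present. The summed leukocyte markers reached at most 0.236 CPM. The endothelial cadherin CDH5 ran from 111 to 117 CPM in siNC and from 43.9 to 53.3 in siCCNL2. The other endothelial markers were low, with PECAM1 at 2.07 to 2.78 CPM in siNC and 0.713 to 1.27 in siCCNL2. VWF ran from 0.709 to 1.07 CPM in siNC and from 0.713 to 1.34 in siCCNL2. The summed ovarian and epithelial markers ran from 2165 to 2239 CPM in siNC and from 1650 to 1802 in siCCNL2. The part of these marker shifts in the results below was not tested, and a change in cell makeup and in RNA per cell cannot be told apart in bulk RNA.

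At 48 h the target CCNL2 and its paralogue CCNL1 were lower in siCCNL2, by 26.4% and 11.8% in mean CPM, while no change was called for CDK11B. CDK9, its cyclin CCNT1 and CDK12 were higher by 28.5%, 14.1% and 16.99%. CCNT2 was lower by 10.7%, and CDK13 and CCNK did not pass the test. Of the 9 members tested, 6 were thus called at an adjusted p under 0.05 by edgeR's quasi-likelihood test, 3 higher and 3 lower. Over all genes tested 33.6% were called, 17.2% higher and 16.5% lower. Among the 6873 genes with a mean CPM at least that of CCNK, the lowest of the tested members, the share was 50.2%. The median log2 fold change of the 9 was -0.06, against 0.00 over all genes, and their median absolute change was 0.18, against 0.19. The 3 siNC and 3 siCCNL2 libraries did not overlap in CPM for 6 of the 9 members, against 43.9% of all genes tested. The share among genes as abundant as the members was not worked out.

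**Figure D1:**
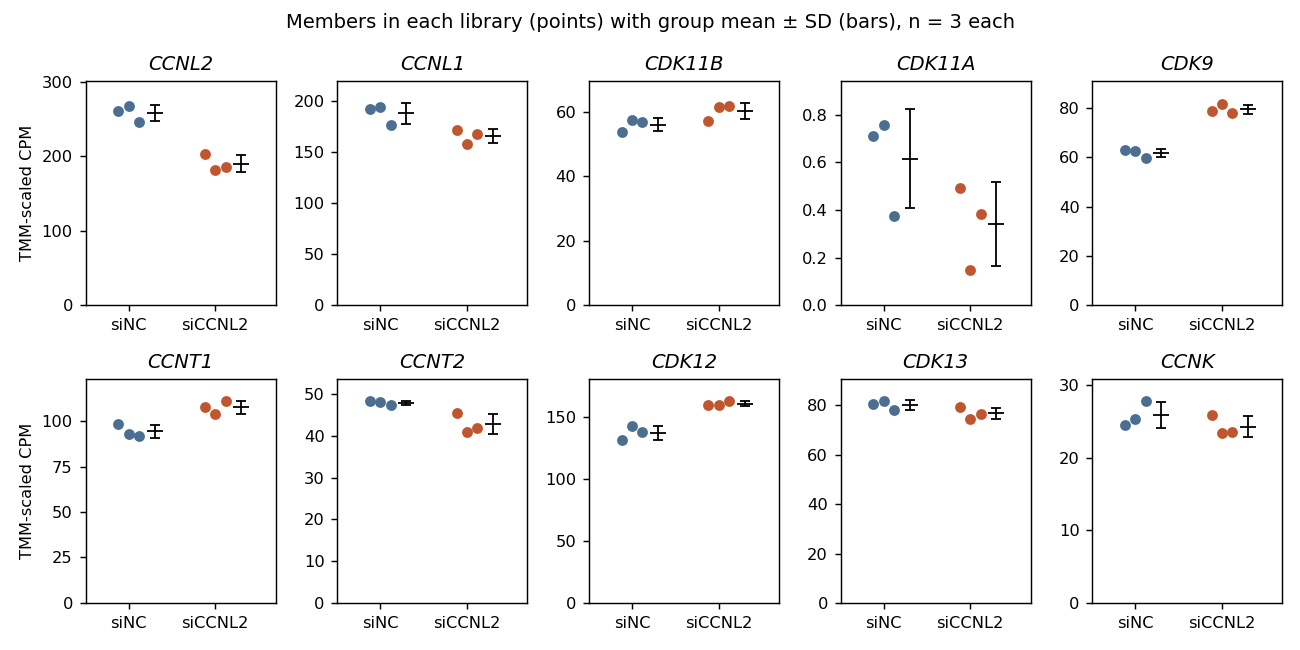
TMM-scaled CPM (y axis, from 0, a separate scale for each gene) of the 10 members in each library. Points are libraries of siNC (blue) and siCCNL2 (orange), and the bars beside them give the group mean ± SD of 3 libraries; the groups are apart for CCNL2, CCNL1, CDK9, CCNT1, CCNT2 and CDK12.

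CCNL2 (ENSG00000221978; chromosome 1, 1385711 to 1399335, minus strand, GRCh38) encodes cyclin L2. Its CPM was 260.6, 267.5 and 246.4 in the siNC libraries 1 to 3 and 202.8, 181.6 and 185.7 in the siCCNL2 libraries 1 to 3. Every siCCNL2 library was below every siNC library, and siCCNL2 library 1 kept the most CCNL2 RNA of its group. The mean went from 258 ± 10.8 to 190 ± 11.2 CPM (SD, n = 3 each), a log2 fold change of -0.44 (SE 0.044, 95% interval -0.53 to -0.35; edgeR adjusted p = 2.15e-08). On the linear scale, the fitted level in siCCNL2 was 0.737 of that in siNC, with an interval from 0.692 to 0.785. CCNL2 held rank 433 of the 15346 genes by p, so many genes that the siRNA was not designed against had a smaller p than its target. GENCODE lists 20 transcripts of CCNL2, of which 4 are protein-coding, 4 are marked for nonsense-mediated decay and 9 retain an intron. Counts per gene add these together, so a change of the protein-coding transcripts alone was not measured.

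CCNL1 (ENSG00000163660; chromosome 3, 157146508 to 157160760, minus strand) encodes cyclin L1, the other cyclin that binds CDK11. Its CPM was 192.5, 194.5 and 176.5 in siNC, against 171.9, 157.9 and 167.3 in siCCNL2. The groups were apart, although the lowest siNC library, library 3, lay only a few CPM above the highest siCCNL2 library, library 1. The mean went from 188 ± 9.83 to 166 ± 7.12 CPM (SD, n = 3 each), a log2 fold change of -0.18 (SE 0.045, 95% interval -0.27 to -0.09; edgeR adjusted p = 0.0028). A Y_RNA copy of 93 bases lies on the opposite strand within CCNL1. The name Y_RNA pools many loci, and its log2 fold change was -0.24. GENCODE lists 26 transcripts of CCNL1, of which 3 are protein-coding and 16 retain an intron.

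CDK11B (ENSG00000248333; chromosome 1, 1635225 to 1659012, minus strand) encodes the kinase that both L cyclins activate. Its CPM was 53.9, 57.7 and 56.8 in siNC, against 57.3, 61.7 and 61.9 in siCCNL2. The groups overlapped, since siCCNL2 library 1 lay below siNC library 2. The log2 fold change was 0.10 (SE 0.056, 95% interval -0.01 to 0.22; edgeR adjusted p = 0.168). The interval of the fold ran from 0.991 to 1.16 and so includes no change. The fold interval lay above that of CCNL2 throughout.

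CDK11A (ENSG00000008128; chromosome 1, 1702379 to 1724357, minus strand), the near-identical copy of CDK11B, had 12, 12 and 6 reads in siNC and 9, 2 and 6 in siCCNL2, too few to pass the filter. The sums were 30 (exact Poisson 95% interval 20.2 to 42.8) and 17 (9.90 to 27.2), which cover counting error only. With library size taken into account the siCCNL2 rate was 0.581 of the siNC rate (interval 0.301 to 1.09), so no difference was detectable at these counts. AL031282.2, on the same strand, covers 52.1% of the exonic bases of CDK11A, and how reads that fall in both were counted is unknown here. CDK11A made up 1.08% ± 0.369 of the CDK11 counts in siNC and 0.569% ± 0.309 in siCCNL2 (SD, n = 3 each). When the counts of both genes were added and fitted as 1 gene, the log2 fold change was 0.09 (SE 0.055; edgeR adjusted p = 0.201).

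CCNL2, CDK11B and CDK11A lie in this order on the minus strand of chromosome 1, with 235889 bases between CCNL2 and CDK11B and 43366 between the CDK11 genes. Of the 25 other gene names between CCNL2 and CDK11A, 12 were tested, of which 2 were higher and 2 lower, 33.3% in all with a median log2 fold change of 0.08. The 2 higher genes were SSU72, a phosphatase of the polymerase tail, at 0.35 and ATAD3A, a mitochondrial membrane protein, at 0.20. The 2 lower genes were MRPL20, a mitochondrial ribosomal protein, at -0.29 and the noncoding AL691432.1 at -0.59. The share called in the interval was close to the 33.6% of all genes, and the called genes went both ways.

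CDK9 (ENSG00000136807; chromosome 9, 127785679 to 127790792, plus strand), the kinase of P-TEFb, had the largest rise among the members. Its CPM was 63.2, 62.5 and 59.9 in siNC, against 78.9, 81.6 and 77.9 in siCCNL2. The groups were far apart compared with the spread inside either. The mean went from 61.8 ± 1.75 to 79.5 ± 1.95 CPM (SD, n = 3 each), a log2 fold change of 0.36 (SE 0.051, 95% interval 0.26 to 0.47; edgeR adjusted p = 4.46e-06). Of the genes within CDK9, MIR2861 and MIR3960 had 0 counted reads in every library.

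CCNT1 (ENSG00000129315; chromosome 12, 48688458 to 48716998, minus strand) encodes cyclin T1, the main cyclin of P-TEFb. Its CPM was 98.2, 93.1 and 91.6 in siNC, against 107.8, 103.9 and 111.0 in siCCNL2. All siCCNL2 libraries were above all siNC libraries. The mean went from 94.3 ± 3.48 to 108 ± 3.51 CPM (SD, n = 3 each), a log2 fold change of 0.19 (SE 0.047, 95% interval 0.09 to 0.29; edgeR adjusted p = 0.0027).

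CCNT2 (ENSG00000082258; chromosome 2, 134918235 to 134959342, plus strand) encodes cyclin T2, the alternative cyclin of CDK9. Its CPM was 48.3, 48.0 and 47.4 in siNC, against 45.5, 40.9 and 41.9 in siCCNL2. The siNC libraries were nearly equal, and all siCCNL2 libraries lay below them. The mean went from 47.9 ± 0.471 to 42.7 ± 2.43 CPM (SD, n = 3 each), a log2 fold change of -0.16 (SE 0.060, 95% interval -0.28 to -0.04; edgeR adjusted p = 0.0411). This was the weakest call among the members. It was lost in 9 of 16 alternatives, among them the DESeq2 Wald test (adjusted p = 0.0926) and the fits without siCCNL2 library 2 (adjusted p = 0.158), without siCCNL2 library 3 (adjusted p = 0.142) or without any 1 of the siNC libraries, while the log2 fold change stayed between -0.21 and -0.13. CCNT1 and CCNT2 thus had fitted changes of opposite sign, and their 95% intervals did not overlap.

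CDK12 (ENSG00000167258; chromosome 17, 39461486 to 39564907, plus strand) encodes 1 of the kinases that bind cyclin K. Its CPM was 130.9, 142.2 and 137.8 in siNC, against 159.2, 159.0 and 162.4 in siCCNL2. The siCCNL2 libraries lay close together and above all siNC libraries. The mean went from 137 ± 5.71 to 160 ± 1.90 CPM (SD, n = 3 each), a log2 fold change of 0.23 (SE 0.042, 95% interval 0.14 to 0.31; edgeR adjusted p = 1.52e-04).

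CDK13 (ENSG00000065883; chromosome 7, 39950121 to 40099580, plus strand), the paralogue of CDK12, had a CPM of 80.5, 82.0 and 78.0 in siNC, against 79.2, 74.6 and 76.5 in siCCNL2. The groups overlapped by siCCNL2 library 1. The log2 fold change was -0.06 (SE 0.049, 95% interval -0.16 to 0.04; edgeR adjusted p = 0.374). The fold interval of 0.893 to 1.03 lay wholly below that of CDK12, and the 2 genes are set against each other as a ratio further on.

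CCNK (ENSG00000090061; chromosome 14, 99481169 to 99535044, plus strand), the cyclin of both kinases, had a CPM of 24.5, 25.3 and 27.8 in siNC, against 25.9, 23.4 and 23.5 in siCCNL2. The groups overlapped. The log2 fold change was -0.09 (SE 0.079, 95% interval -0.25 to 0.08; edgeR adjusted p = 0.431), and the fold interval ran from 0.840 to 1.05. CCDC85C, on the opposite strand, covers 59.5% of the exonic bases of CCNK and was higher in siCCNL2 (log2 fold change 0.33; edgeR adjusted p = 4.26e-06). The strand setting of the counting is unknown here, and without it CCNK and CCDC85C reads cannot be told apart where the genes overlap.

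**Figure D2:**
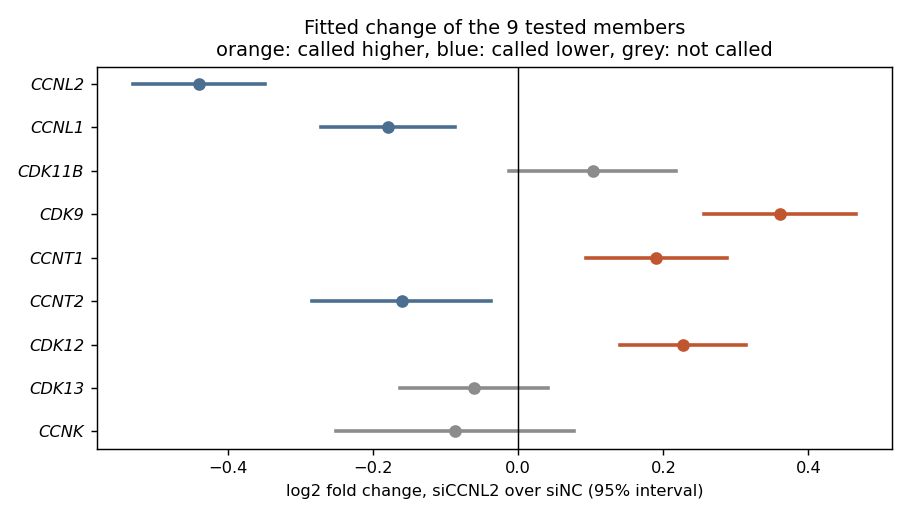
Fitted log2 fold change, siCCNL2 over siNC (x axis), of the 9 tested members, with 95% intervals as lines. CDK9, CDK12 and CCNT1 (orange) were called higher and CCNL2, CCNL1 and CCNT2 (blue) lower, while the intervals of CDK11B, CDK13 and CCNK (grey) include 0.

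Levels of different genes were compared in the authors' deposited length-adjusted score, which resembles TPM. In siNC the order was CCNL2 (mean score 178), CCNL1 (120), CDK9 (76.6), CDK11B (57.7), CDK12 (50.8), CCNT1 (42.0), CDK13 (25.9), CCNT2 (21.3), CCNK (14.1) and CDK11A (0.635). No neighbours in that order overlapped between libraries. In siCCNL2 the order of the means was the same, with CCNL2 at 130, CCNL1 at 106, CDK9 at 97.7, CDK11B at 61.5, CDK12 at 59.0, CCNT1 at 47.5, CDK13 at 24.6, CCNT2 at 18.9, CCNK at 13.2 and CDK11A at 0.352. There CCNL1 and CDK9 overlapped, as did CDK11B and CDK12. CCNL2 thus remained the most abundant member per length in the knockdown libraries, and cyclin K had the lowest score apart from CDK11A. The ranks of CCNK and of the CDK11 genes depend on how reads shared with overlapping or near-identical genes were counted, which is unknown here.

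Ratios of scores within a library show how members that share a partner shifted against each other. In all 6 ratios the siNC and siCCNL2 libraries did not overlap, which gives the smallest p of the exact two-sided permutation test with 3 against 3 libraries (p = 0.1, also 0.1 after Benjamini-Hochberg adjustment over the 6 ratios). No ratio could therefore pass 0.05. Every ratio holds a member whose groups were already apart in CPM, as 43.9% of all genes tested were. How often ratios of other genes would be apart was not worked out. CCNL2 to CCNL1 was 1.459, 1.483 and 1.504 in siNC, against 1.27, 1.24 and 1.20 in siCCNL2. The share of CCNL2 in the cyclin L score went from 59.7% ± 0.367 to 55.3% ± 0.757 (SD, n = 3 each). The L cyclins to the CDK11 genes stood at 5.41, 5.15 and 4.82 in siNC and at 4.21, 3.57 and 3.68 in siCCNL2, a log2 difference of -0.43. Cyclin L RNA per length exceeded CDK11 RNA in every library, within the limit set by reads shared between CDK11A and CDK11B.

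CCNT1 to CCNT2 was 2.03, 1.94 and 1.93 in siNC, against 2.37, 2.55 and 2.65 in siCCNL2, a log2 difference of 0.36. The CCNT2 share of cyclin T went from 33.7% ± 0.623 to 28.4% ± 1.15 (SD, n = 3 each), with CCNT1 the larger in every library. The T cyclins to CDK9 stood at 0.832, 0.811 and 0.833 in siNC and at 0.697, 0.637 and 0.705 in siCCNL2. CDK12 to CDK13 was 1.87, 1.99 and 2.03 in siNC, against 2.31, 2.45 and 2.44 in siCCNL2, a log2 difference of 0.29. CCNK to the sum of CDK12 and CDK13 had a mean of 0.184 ± 0.0130 in siNC and 0.157 ± 0.00859 in siCCNL2 (SD, n = 3 each). Both ratios of cyclin to kinase score were thus lower in each siCCNL2 library than in each siNC library, with p = 0.1 by the exact permutation test. CCNK itself was not called. Where it overlaps CCDC85C, its reads cannot be told apart without the strand setting, which is unknown here.

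**Figure D3:**
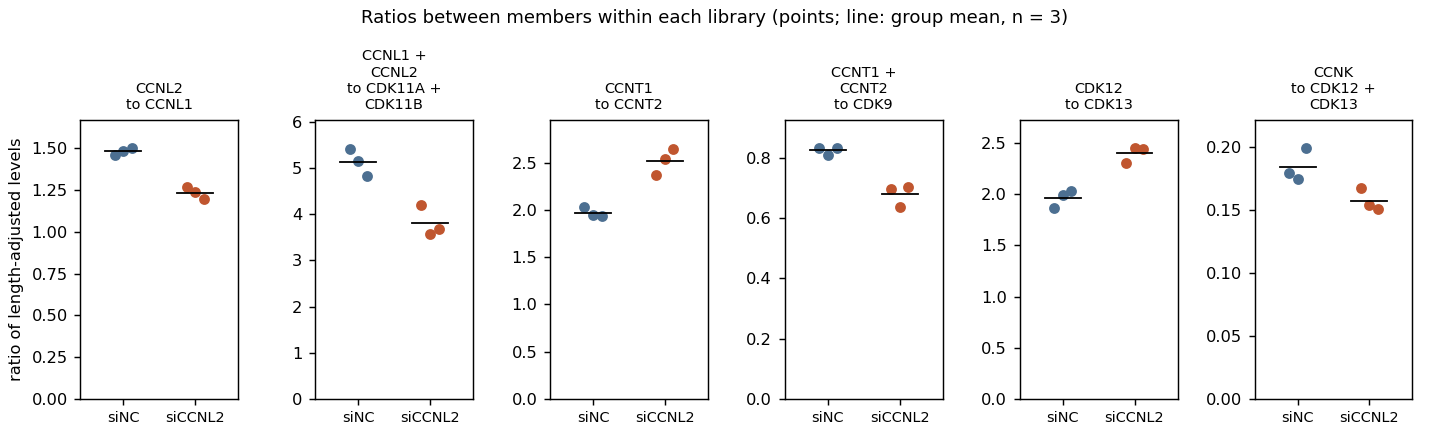
Ratios of the length-adjusted score between members within each library (y axis, from 0, a separate scale for each ratio). Points are libraries of siNC (blue) and siCCNL2 (orange) and lines the means of 3; the groups do not overlap in any of the 6 ratios, with CCNL2 to CCNL1 at 1.48 on average in siNC and 1.24 in siCCNL2.

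The other genes of these pathways were followed in 10 lists, described by counts and medians. Of the 115 tested genes in all lists, each taken once, 29 were higher and 12 lower, with a median log2 fold change of 0.05. The share called was 35.7%, against 33.6% over all genes and 50.2% of genes at least as abundant as CCNK. Some list genes were less abundant than CCNK. By direction, 25.2% of the list genes were higher, against 17.2% over all genes, and 10.4% lower, against 16.5%. Shares by direction among genes at least as abundant as CCNK were not worked out. With upper-quartile factors in place of TMM factors 26 were higher and 19 lower. Over all genes the same factors gave 2368 higher and 2783 lower, against 2634 and 2525 with TMM factors. Whether the lists differ from other genes was not tested. Values in the next paragraphs are log2 fold changes, with adjusted p from edgeR. The 33.6% and 50.2% are the background for the share called in each list.

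Of 10 partners and substrates of CDK11, 3 were higher and 1 lower (40% called, 33.6% over all genes), with a median of 0.04. EIF3F, a translation initiation factor subunit phosphorylated by CDK11, was at 141 ± 0.800 CPM in siNC and 206 ± 1.46 in siCCNL2 (0.54, SE 0.038; adjusted p = 6.31e-11). CSNK2A2, a catalytic subunit of casein kinase 2, rose by 0.33 and RNPS1, an exon junction protein that binds CDK11, by 0.18. SF3B1, the branch-site factor that CDK11 phosphorylates, went from 474 ± 9.16 to 385 ± 9.49 CPM (-0.30, SE 0.034; adjusted p = 2.17e-07). SAP30BP, a splicing partner of CDK11, was at -0.09 and was not called (adjusted p = 0.107).

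Of 8 tested genes of P-TEFb inhibition and recruitment, 3 were higher and none lower (37.5% called, 33.6% over all genes), with a median of 0.14. HEXIM1, the inhibitor that binds P-TEFb with 7SK RNA, went from 65.4 ± 2.59 to 79.4 ± 1.34 CPM (0.28, SE 0.051; adjusted p = 1.20e-04), so the RNAs of the kinase CDK9 and of its inhibitor were both higher. LARP7 and MEPCE, the protein partners of 7SK, stood at 0.16 and 0.23 and were not called. PPM1G, a phosphatase that releases P-TEFb from 7SK, was at 0.11, a call lost in 9 of 16, among them the fits without siNC library 1 or 2 and without siCCNL2 library 2 or 3.

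Of 9 tested genes of the super elongation complex, which carries P-TEFb to paused polymerase, 5 were higher and 1 lower, with a median of 0.13. The scaffold AFF3 went from 22.9 ± 1.85 to 31.7 ± 0.187 CPM (0.47, SE 0.076; adjusted p = 2.64e-05), and the reader MLLT1 rose by 0.30. The scaffold AFF4 was at 0.14, a call lost without siNC library 2 (adjusted p = 0.0582). EAF1, a partner of the ELL elongation factors, was at -0.21, a call lost in 5 of 16 alternatives, among them the fits without siNC library 1 or 3 and without siCCNL2 library 1 or 3. In all, 66.7% of the list was called, against 33.6% of all genes and 50.2% of genes at least as abundant as CCNK.

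Of 16 tested pausing and elongation factors, 3 were higher and 2 lower (31.2% called, 33.6% over all genes), with a median of -0.02. TCEA1, the factor that rescues backtracked polymerase, rose by 0.38, SUPT16H, a histone chaperone subunit of FACT, by 0.27, and NELFB, a subunit of the pausing factor NELF, by 0.20. LEO1, a subunit of the PAF1 complex, went from 48.6 ± 5.01 to 38.9 ± 3.29 CPM (-0.33, SE 0.074; adjusted p = 0.00109). CTR9, of the same complex, was at -0.15, a call lost without siNC library 2 (adjusted p = 0.137) and without siCCNL2 library 3 (adjusted p = 0.0557). The direct P-TEFb substrates SUPT5H at -0.07 and NELFE at -0.04 were not called.

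Of 12 other transcription kinases, their cyclins and Mediator kinase subunits, 1 was higher and 2 lower (25% called, 33.6% over all genes), median -0.02. MED12L, a paralogue of the Mediator subunit MED12, went from 15.8 ± 1.03 to 10.3 ± 0.508 CPM (-0.61, SE 0.10, edgeR adjusted p = 5.22e-05), and CDK10 was at -0.33. CDK19, the paralogue of the Mediator kinase CDK8, was at 0.27 with overlapping groups, a call lost in 6 of 16 alternatives, among them the fits without siNC library 2 or 3 and without siCCNL2 library 1 or 3. CDK7 at -0.17 and its cyclin CCNH at -0.12 were not called.

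Of 9 phosphatases and associated proteins of the polymerase tail, 2 were higher and none lower (22.2% called, 33.6% over all genes), median 0.10. SSU72, the gene between CCNL2 and CDK11B described above, went from 74.0 ± 1.64 to 94.2 ± 2.60 CPM (0.35, SE 0.048; adjusted p = 3.52e-06). CTDSP2, a small tail phosphatase, was at 0.12, a call lost in 4 of 16 alternatives, among them the fits without siNC library 2 and without siCCNL2 library 3. Of 11 tested subunits of RNA polymerase II, 2 were higher and 2 lower (36.4% called, 33.6% over all genes), with a median of -0.07. POLR2D went from 28.9 ± 1.89 to 57.2 ± 2.22 CPM (0.99, SE 0.064; adjusted p = 1.33e-11), far above the other subunits, and POLR2C was at 0.43. POLR2F at -0.23, with overlapping groups, and POLR2K at -0.16 lost their calls in 5 and 3 of 16 alternatives. For POLR2F these included the fits without siNC library 2 and without siCCNL2 library 1 or 3, and for POLR2K those without siNC library 1 and without siCCNL2 library 1 or 3. The largest subunit POLR2A, which bears the tail, was at -0.08 and was not called.

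Of 16 DNA repair genes listed for their known sensitivity to CDK12 loss, not all of them long, 2 were higher and 1 lower, 18.8% in all with a median of 0.07. Over all genes 33.6% were called, and 50.2% of those at least as abundant as CCNK. ATR, a checkpoint kinase, went from 152 ± 12.99 to 119 ± 6.98 CPM (-0.35, SE 0.054; adjusted p = 2.01e-05). RAD51D, a recombination mediator, was at 0.34, a call lost on the score scale, and MRE11, a nuclease of break repair, at 0.21, a call lost in 3 of 16 alternatives, among them the fit without siCCNL2 library 3 (adjusted p = 0.0723). BRCA1 at -0.11, BRCA2 at 0.06, FANCD2 at 0.00 and ATM at 0.12 were not called.

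Of 10 short-lived transcripts listed as sensitive to CDK9 inhibition, 2 were higher and 2 lower (40% called, 33.6% over all genes), median 0.10. FOSL1, an AP-1 subunit, went from 793 ± 21.5 to 631 ± 8.13 CPM (-0.33, SE 0.032; adjusted p = 1.63e-08), and JUNB, another AP-1 subunit, was at -0.63. IER2, an immediate early gene, was at 0.44, and HEXIM1 is also on this list. MYC at -0.04 and MCL1 at -0.07 were not called. Of 15 tested kinases and cyclins of the cell cycle, taken for comparison, 7 were higher and 1 lower, 53.3% in all with a median of 0.11. The share called was 33.6% over all genes and 50.2% among genes at least as abundant as CCNK. CCND1, the D-type cyclin of G1, went from 1760 ± 28.3 to 835 ± 6.32 CPM (-1.08, SE 0.030; adjusted p = 1.43e-18), a larger change than that of the siRNA's target. CDK6, a partner of the D cyclins, rose by 0.42, the mitotic cyclin CCNB2 by 0.30 and CCNI by 0.22.

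**Figure D4:**
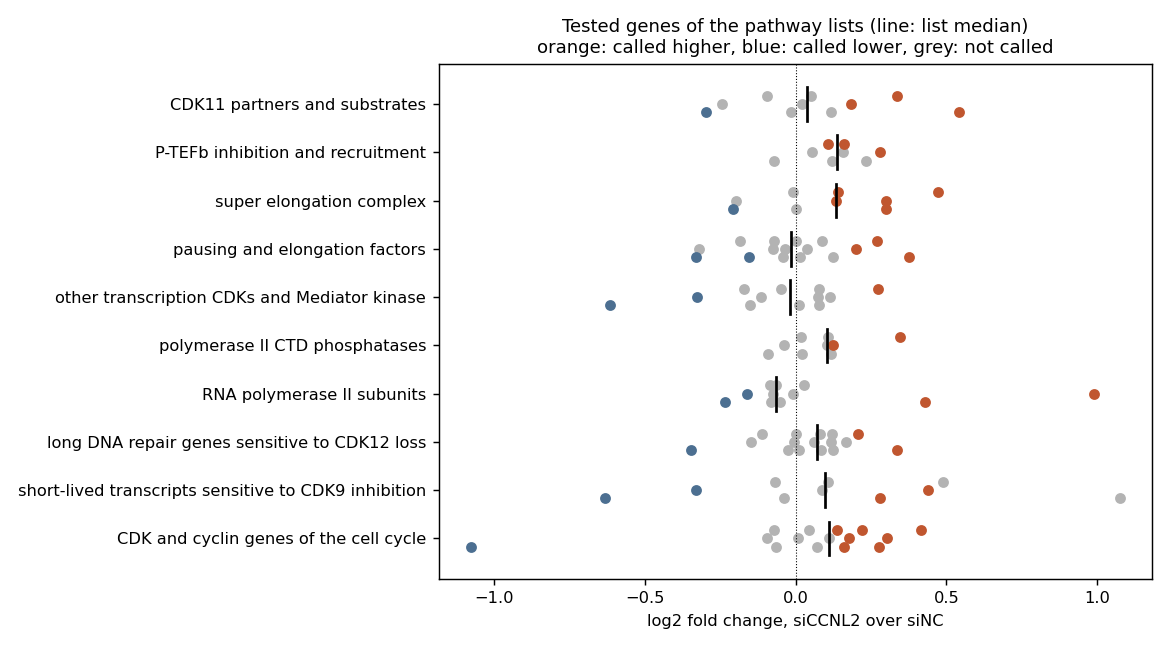
Log2 fold change, siCCNL2 over siNC (x axis), of each tested gene in 10 lists of related genes (rows), with the list median as a black line. Orange points were called higher, blue lower and grey neither; list medians run from -0.07 to 0.14, and CCND1 at -1.08 and POLR2D at 0.99 lie farthest out among called genes.

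Among the 10622 tested genes that averaged 5 CPM or more, TEAD1 (r = 0.999), SLC39A13 (r = 0.997) and DOCK9 (r = 0.997) had log2 CPM most correlated with that of CCNL2 over the 6 libraries. These r values describe 2 groups of 3 libraries, so that any gene with a like step between the groups scores high. TEAD1, a transcription factor of the Hippo pathway, was at 329, 336 and 324 CPM in siNC and 294, 281 and 283 in siCCNL2. In it, as in CCNL2, library 2 was the highest in siNC and library 1 the highest in siCCNL2. The choice by r over these same libraries favors such a shared order, so it is no separate likeness. SLC39A13 encodes a zinc transporter and DOCK9 a guanine nucleotide exchange factor, with log2 fold changes of -0.27 and -0.43.

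The start regions of the members were searched in RefSeq (GRCh38.p14), in the 250 bases before each start on both strands, where all 10 members matched. A CCAAT box (CCAAT) was present in 5 members and in 33.0% of 27305 promoters, and a GC box (GGGCGG) in 7 members and in 42.3% of all. An ETS core (CCGGAAG) was present in 4 members and in 8.82% of all, and the TATA box (TATAAA) in 0 members and in 11.1%. The 120 bases before the start are shown for CCNL2 (chr1:1399336-1399455, minus strand), with CCAAT and GC boxes in capitals, and for CDK12 (chr17:39461366-39461485, plus strand), which held none of the motifs searched, as the member with the most matches and the only member with none.
CCNL2: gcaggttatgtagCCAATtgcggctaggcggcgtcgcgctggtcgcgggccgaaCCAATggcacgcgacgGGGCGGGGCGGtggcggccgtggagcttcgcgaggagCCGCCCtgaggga
CDK12: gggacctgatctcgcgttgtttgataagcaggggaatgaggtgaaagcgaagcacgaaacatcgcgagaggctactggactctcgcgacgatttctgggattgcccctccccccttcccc

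The GC content of the 250 bases was 73.6% for CCNL2 and 48.8% for CDK12, with a median of 58% over all promoters. The E-box (CACGTG) was found in CCNT1 alone among the members, and in 6.49% of all promoters. The cAMP response element (TGACGTCA) was found in CCNL1 alone, and in 1.77% of all. A match is a description of the letters and not of a factor's binding, which was not measured here.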

How the data were processed

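Total RNA was sequenced in 6 libraries, 3 with siNC and 3 with siCCNL2. The authors deposited raw read counts for each gene, as whole numbers, and a length-adjusted score for the same genes. Reads were handled with HISAT2, fastp 0.23.0 and HTSeq 2.0.1 on GRCh38, per the submitters' processing notes, which give no order. Annotation release, library kit, strand setting and the handling of multiply aligned reads are not given in the sources used here. Each column of the deposited score sums to 1000000 over distinct names, and to 1348377 to 1491986 over all 62710 rows because some names repeat with equal values, so each name was used once.

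Counts were tested in R 4.3.3 with edgeR 4.0.16: filterByExpr (15346 genes, at least 99.8% of counts), TMM factors, glmQLFit and glmQLFTest with the group as only term, and p-values adjusted by Benjamini-Hochberg over all genes, with a call at an adjusted p under 0.05. CPM values are TMM-scaled, and an SE is the size of the log2 fold change over the root of its F. Total counts of 13596286 to 18095529 per library limit precision for the rarer genes. Single ratios had exact permutation tests. Alternatives were other scaling factors (DESeq2 1.42.0 size factors, upper quartile, none), other filters, the DESeq2 Wald test, limma 3.58.1 (voom, and trend on the log2 score with a pseudocount of 1 or 0.1), a threshold of 0.01, a replicate block, each library left out, CPM in place of the score, and CDK11B alone or summed with CDK11A. The procedure was tested on simulated data.

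Members and gene lists were chosen with earlier results of these data known. All members are named, with up to 3 called genes per list and direction by p, genes overlapping a member, and the 3 genes most correlated with CCNL2. Uncalled list genes and ATAD3A, MRPL20 and AL691432.1 were named after their values were seen. 1 list gene that the rule names is not reported here. Sequences are from GENCODE release 29 and RefSeq.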

Additional observations from a re-analysis of the deposited data

How the results depend on the processing

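Over 16 alternatives on single genes, CCNL2, CCNL1, CDK9, CDK12, CCNT1, CDK13 and CCNK kept their direction and their side of the threshold, as did CDK11B over 17. The log2 fold change ranged from -0.49 to -0.41 for CCNL2, from -0.22 to -0.14 for CCNL1, from 0.34 to 0.38 for CDK9, from 0.20 to 0.26 for CDK12 and from 0.17 to 0.22 for CCNT1. CCNT2 kept its direction and lost its call in 9, so 2 members in place of 3 were lower there. Upper-quartile factors gave 19 lower genes in the pathway lists, against 12 with TMM factors. Over all genes they gave 2783 lower, against 2525, and 2368 higher, against 2634, and the cause was not tested. The 6 ratios kept their direction under each alternative run on them. Same-numbered libraries of the groups deviated together by r = 0.041, 0.023 and 0.031 only, although each library correlated best with its own number. Values this small cannot settle whether the numbers pair the libraries. With the replicate number as a block CCNL2 was at -0.44, 3 members were higher and 3 lower, and 2673 genes were higher and 2561 lower over all genes, against 2634 and 2525. Leaving out libraries gave 2147 to 2492 higher and 2032 to 2276 lower. CDK11A had 47 counted reads in all, and how reads shared with CDK11B or AL031282.2 were counted is unknown here.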
